A study of Homo sapiens with 4 samples.

Results

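The genes described are the 3 members of the GADD45 family and 7 further genes known as targets of the transcription factor p53: GADD45A, GADD45B, GADD45G, CDKN1A, MDM2, BTG2, SESN1, ZMAT3, TP53INP1 and PLK3. They were chosen by name through the platform annotation, which named 10 probes for 9 of the 10 genes. BTG2 had no probe named for it and is not analysed here. All 9 genes with a probe were detected on all 4 arrays, among 18639 genes with a probe and 15738 detected on all 4 arrays. The cells were HEK293, a line immortalized from human embryonic kidney with adenoviral DNA, carrying a transgene for LGP2-4KR (called 4KR here) or for LGP2 itself, a cytoplasmic helicase that binds viral RNA and is related to RIG-I. In each line, RNA was taken 12 h after Lipofectamine transfection of short poly I:C at 100 ng/ml, a synthetic double-stranded RNA, and from unstimulated cells (0 h). Each of the 4 groups was 1 single-colour array, so no ratio between arrays has a replicate, and no array came from mock-transfected cells. The change written 4KR is not defined in the labels, and the labels do not say whether a line is 1 clone.

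GADD45 proteins are small nuclear proteins that cells make under stress. They bind the kinase MAP3K4 and so activate the p38 and JNK kinases, and they also bind PCNA and the mitotic kinase CDK1. The p53 protein is stabilized after DNA damage and switches on genes for cell cycle arrest, repair and death, among them that of its own ubiquitin ligase, MDM2. GADD45A is a classical p53 target, whereas GADD45B is also known as a target of NF-kB. In HEK293 cells the adenoviral early-region proteins bind p53 and alter its function.

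The promoter windows of GADD45B and GADD45G, from RefSeq, are shown beside those of CDKN1A and SESN1, because the GADD45 genes changed at 12 h and the others did not pass the test. Each window runs on the gene's strand, 5′ to 3′, from 250 bases before to 50 bases after the start, in build GRCh38.p14. They lie at chr19:2475877-2476176 (plus strand, GADD45B), chr9:89604762-89605061 (plus strand, GADD45G), chr6:36678464-36678763 (plus strand, CDKN1A) and chr6:109008939-109009238 (minus strand, 1 of 3 SESN1 windows). Capitals mark every match to the 7 motifs searched.
GADD45B: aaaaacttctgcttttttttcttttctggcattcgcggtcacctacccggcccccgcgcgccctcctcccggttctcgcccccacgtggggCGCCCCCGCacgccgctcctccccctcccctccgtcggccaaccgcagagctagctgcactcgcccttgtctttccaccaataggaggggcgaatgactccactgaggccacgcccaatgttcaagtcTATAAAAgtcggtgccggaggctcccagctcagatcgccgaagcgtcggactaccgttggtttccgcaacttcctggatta
GADD45G: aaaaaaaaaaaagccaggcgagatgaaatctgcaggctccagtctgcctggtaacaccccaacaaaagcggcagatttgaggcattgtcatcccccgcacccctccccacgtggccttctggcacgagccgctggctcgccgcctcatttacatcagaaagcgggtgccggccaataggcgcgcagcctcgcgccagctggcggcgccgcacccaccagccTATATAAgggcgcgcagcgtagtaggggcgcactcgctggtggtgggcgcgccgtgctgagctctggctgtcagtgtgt
CDKN1A: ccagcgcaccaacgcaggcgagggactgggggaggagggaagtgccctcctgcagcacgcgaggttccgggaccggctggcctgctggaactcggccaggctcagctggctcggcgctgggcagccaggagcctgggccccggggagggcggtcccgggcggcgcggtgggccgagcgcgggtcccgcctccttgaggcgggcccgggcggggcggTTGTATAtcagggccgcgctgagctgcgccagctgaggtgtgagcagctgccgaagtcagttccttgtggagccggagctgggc
SESN1: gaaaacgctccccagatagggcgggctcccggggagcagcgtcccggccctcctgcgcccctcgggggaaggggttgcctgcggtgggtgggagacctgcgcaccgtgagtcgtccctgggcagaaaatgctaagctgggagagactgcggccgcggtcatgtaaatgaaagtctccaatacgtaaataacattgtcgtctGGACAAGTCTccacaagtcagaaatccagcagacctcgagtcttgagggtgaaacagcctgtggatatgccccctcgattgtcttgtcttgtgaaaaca
The motifs, searched on both strands, were AP-1 (TGA and TCA with 1 base between), CRE (TGACGTCA), the ISRE of interferon-induced genes, EGR (GCGNGGGCG), TATA (the letters of that name, 1 base, then AA), the NF-kB decamer and the p53 decamer. The TATA motif was added after the windows had been read. GADD45B held an EGR match beginning 159 bases before the start, a motif found in 9.43% of all 35116 windows, and a TATA match beginning 31 bases before it. GADD45G held a TATA match beginning 29 bases before the start, and 9.1% of all windows hold that motif. The CDKN1A window held a match to the TATA letters on the opposite strand, and the SESN1 window held a p53 decamer beginning 49 bases before the start, as 6.63% of all windows do. The NF-kB decamer, found in 5.91% of all windows, was in none of the 14 windows matched to 8 of the 10 genes, which leave out GADD45A and TP53INP1. AP-1, CRE and ISRE, held by 7.71%, 1.85% and 3.57% of all windows, had no match in the 4 windows shown. Among the other windows, 2 of the 4 of MDM2 held an AP-1 match and that of BTG2 held 2 EGR matches. The remaining SESN1 windows and those of ZMAT3 and PLK3 held no match, so the SESN1 window shown is the only one of that gene with a match. A match is a description of letters, not a binding site, and letters outside these windows were not searched.

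The first question was which of these genes changed after poly I:C. All 3 GADD45 genes were higher at 12 h than at 0 h in both lines, GADD45B most. Levels are given first as the intensities that the authors deposited, scaled so that each array has a median of 25.

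GADD45B, the family member best known from NF-kB and TGF-beta signalling, had an intensity of 860.2 at 12 h against 120.5 at 0 h in 4KR cells, and of 713.7 against 92.5 in LGP2 cells. Both arrays at 12 h were far above both at 0 h. On the log2 scale, after background correction with an offset of 50 and quantile normalization, the ratio of 12 h over 0 h was 2.56 in 4KR cells and 2.45 in LGP2 cells, or 5.90-fold and 5.47-fold. GADD45B ranked 17 from the top among 17085 detected genes in each line.

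GADD45A, the p53-regulated member, had an intensity of 1033 at 12 h against 475.1 at 0 h in 4KR cells, and of 1117 against 457.1 in LGP2 cells. The 2 lines were close to each other at each time and far apart between times. The log2 ratios were 1.15 and 1.18, or 2.22-fold in 4KR cells and 2.27-fold in LGP2 cells.

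GADD45G, the third member, was dimmer, with an intensity of 71.9 at 12 h against 23.8 at 0 h in 4KR cells and of 59.1 against 18.2 in LGP2 cells. Its log2 ratios of 0.87 and 0.77 stayed under 2-fold with the offset of 50, which shrinks the ratios of dim genes. In the deposited values, without that offset, they were 1.60 and 1.70, and the all-gene median was then 0.14 in 4KR cells and 0.24 in LGP2 cells.

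At 2-fold, 2 of the 9 genes were higher in 4KR cells and 2 in LGP2 cells, GADD45A and GADD45B in each case, and 0 were lower. Of all detected genes, 0.398% were 2-fold higher and 0.00585% lower in 4KR cells, and 0.433% were higher and 0.0117% lower in LGP2 cells. At 1.5-fold, 3 of the 9 were higher in 4KR cells (1.55% of all genes), with GADD45G added, and 4 in LGP2 cells (1.85%), with GADD45G and MDM2 added. Over the 9 genes the median log2 ratio was 0.09 in 4KR cells and 0.36 in LGP2 cells, against -0.01 in either line for the genes detected on all arrays. Choosing another correction or scaling left each GADD45 gene above 0 in both lines, whether or not the all-gene median was subtracted. This held in all 9 settings compared, which include the one given here. A stricter detection limit and the choice of the brightest probe could not change these ratios. Each GADD45 gene has 1 probe, and detection does not enter a ratio. The same limit applies below to signs counted over 9 settings for the 9 genes, except for the probe choice of SESN1, which has 2 probes.

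**Figure D1:**
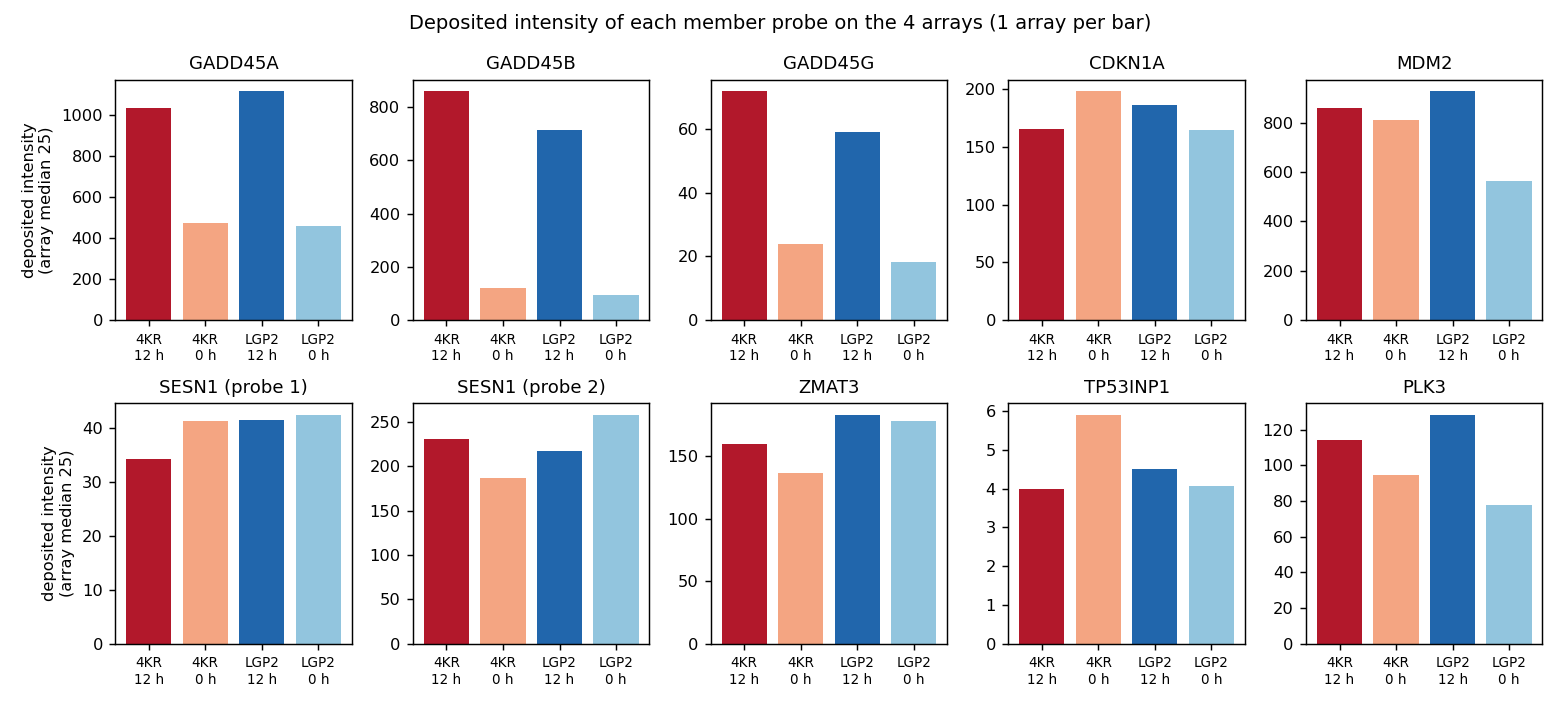
Deposited intensity (array median 25) of each of the 10 probes on the 4 arrays, 1 bar per array and an axis of its own per probe. The 3 GADD45 panels have both 12 h bars above both 0 h bars, for example 860.2 and 713.7 against 120.5 and 92.5 for GADD45B, and no such step of 2-fold is seen in the other panels.

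A test of single genes was possible only by letting the lines stand in for replicates, in an additive limma fit of stimulation and line over the 4 arrays, with 1 residual degree of freedom per gene and the spread pooled across genes. In that fit GADD45B rose by 2.51 ± 0.04 (SE, log2, adjusted p = 0.00418), GADD45A by 1.16 ± 0.03 (adjusted p = 0.00989) and GADD45G by 0.82 ± 0.04 (adjusted p = 0.0221), each higher at 12 h in both lines. Of all 17085 genes tested, 8.05% passed as higher and 7.42% as lower, and the 3 of 9 genes that passed were the GADD45 family. With plain subtraction of the blank level the calls of GADD45A (adjusted p = 0.0685) and GADD45G (adjusted p = 0.0544) were lost, while GADD45B kept its call in all 9 settings. Poly I:C, the transfection itself and 12 h of further culture cannot be told apart in this design. In bulk RNA, more cells with the RNA and more of the RNA per cell cannot be told apart.

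The other 6 genes, all known p53 targets, had log2 ratios that ran from -0.34 to 0.16 in 4KR cells and from -0.29 to 0.63 in LGP2 cells, and 0 of 6 passed the limma fit, with adjusted p between 0.155 and 0.792. At an unadjusted p under 0.05 the count over all 9 genes was 3, the GADD45 genes, where 15.5% of all genes were higher at that level.

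CDKN1A, the gene of the cyclin-dependent kinase inhibitor p21 and the main arrest gene downstream of p53, had an intensity of 165.6 at 12 h against 198.2 at 0 h in 4KR cells and of 186.0 against 164.6 in LGP2 cells. The 4 values overlap between the times. The log2 ratios were -0.34 and -0.03, and the mean of -0.19 ± 0.09 did not pass (SE, adjusted p = 0.269). Without normalization between arrays it was 0.28, beside an all-gene median of 0.21, so the sign depends on scaling.

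MDM2, whose protein marks p53 for degradation, was bright on every array, with 859.2 at 12 h against 812.0 at 0 h in 4KR cells and 928.8 against 565.9 in LGP2 cells. Both arrays at 12 h were above both at 0 h, and the unstimulated LGP2 array had the lowest value. The log2 ratio was 0.16 in 4KR cells and 0.63 in LGP2 cells, 1.55-fold, and the mean of 0.40 ± 0.13 did not pass (adjusted p = 0.155). With median scaling (0.52, adjusted p = 0.000175) and without normalization (0.74, adjusted p = 3.24e-11) it did. The all-gene medians in those settings were -0.01 and 0.21, and without normalization 6927 of all genes were called higher. P-values this small rest on the spread pooled across genes, with 1 residual degree of freedom per gene, and do not measure variation between cultures.

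PLK3, a stress-responsive kinase of the polo family, had an intensity of 114.2 at 12 h against 94.5 at 0 h in 4KR cells and of 128.2 against 77.5 in LGP2 cells. Both arrays at 12 h were above both at 0 h, with log2 ratios of 0.09 and 0.36 that stayed above 0 in all 9 settings. The mean of 0.22 ± 0.08 did not pass (adjusted p = 0.178), and did so with median scaling and without normalization (0.45 and 0.67). The all-gene medians in those settings were -0.01 and 0.21. The probe lies in print block 20, where the median log2 ratio of LGP2 cells was 0.12 and that of 4KR cells 0.01.

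SESN1, which encodes a stress-induced inhibitor of mTORC1 signalling, had 2 probes that disagreed. The brighter probe had 230.4 at 12 h against 186.7 at 0 h in 4KR cells and 217.3 against 257.9 in LGP2 cells. The dimmer probe had 34.3 against 41.2 in 4KR cells and 41.4 against 42.4 in LGP2 cells. Averaged, the log2 ratios were -0.04 and -0.29. The brighter probe and that of ZMAT3 lie in print block 24, where the median ratio was 0.04 in 4KR cells and -0.13 in LGP2 cells.

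ZMAT3, the gene of a zinc finger RNA-binding protein, had 159.4 at 12 h against 136.2 at 0 h in 4KR cells and 183.1 against 178.1 in LGP2 cells. Its log2 ratios after quantile normalization, 0.08 and -0.15, were of opposite sign, the only such pair among the 6 genes in that setting. The sign in LGP2 cells was positive in 3 of 9 settings. In the deposited values the ratios of ZMAT3 were 0.23 and 0.04, and those of CDKN1A, SESN1 and TP53INP1 were of opposite sign. TP53INP1, which promotes p53-dependent death and autophagy, was near background. Its intensities were 4.0 at 12 h against 5.9 at 0 h in 4KR cells and 4.5 against 4.08 in LGP2 cells, and its signal of 9.51 and 9.77 scanner units above blank in 4KR cells and 8.86 and 6.98 in LGP2 cells compared with 1.05 to 1.28 units for the SD of the blank spots. Its log2 ratios of -0.13 and -0.05 are shrunk by the offset, and were -0.83 and -0.34 with plain subtraction.

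**Figure D2:**
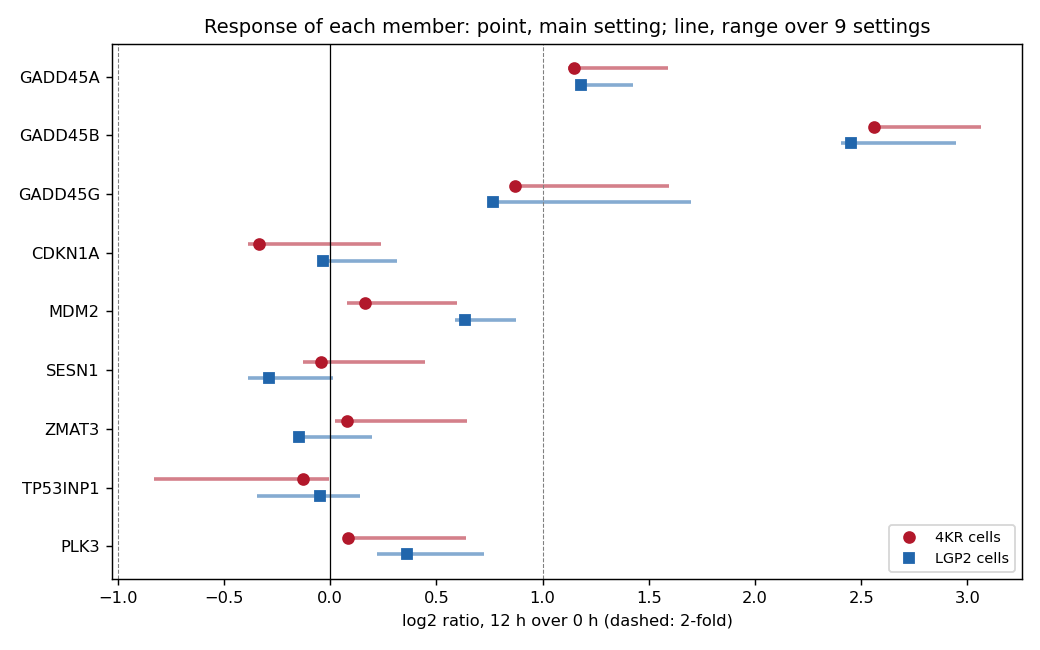
Log2 ratio of 12 h over 0 h for each of the 9 genes in 4KR cells (circles) and LGP2 cells (squares), with horizontal lines for the range over 9 settings and dashed lines at 2-fold. GADD45B lies at 2.56 and 2.45 and GADD45A at 1.15 and 1.18, past 2-fold over their whole ranges, while CDKN1A, SESN1, ZMAT3 and TP53INP1 have ranges that cross 0 in at least 1 line.

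The second question was whether the 2 lines responded differently. Subtracting the LGP2 response from the 4KR response gave 0.11 for GADD45B, -0.03 for GADD45A and 0.10 for GADD45G, small beside the responses themselves, and the sign of each changed in at least 1 of the 9 settings. The other differences ran from -0.47 for MDM2 to 0.24 for SESN1. Past 2-fold were 0 of 9 genes in either direction, and past 1.5-fold also 0, where 0.0254% and 0.0381% of all genes detected on all 4 arrays passed 2-fold as higher and lower, and 0.451% and 0.432% passed 1.5-fold. With 1 array per group these differences have no test. MDM2 at -0.47, CDKN1A at -0.30, PLK3 at -0.27 and TP53INP1 at -0.08 were below 0 in all 9 settings, and SESN1 at 0.24 and ZMAT3 at 0.23 were above 0 in all 9. For SESN1 and ZMAT3 the median difference of their print block 24 was 0.20, and for PLK3 that of block 20 was -0.11. The part of print position in these differences was not tested beyond subtracting block medians, which left 0.14 for SESN1, 0.02 for ZMAT3 and -0.17 for PLK3.

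**Figure D3:**
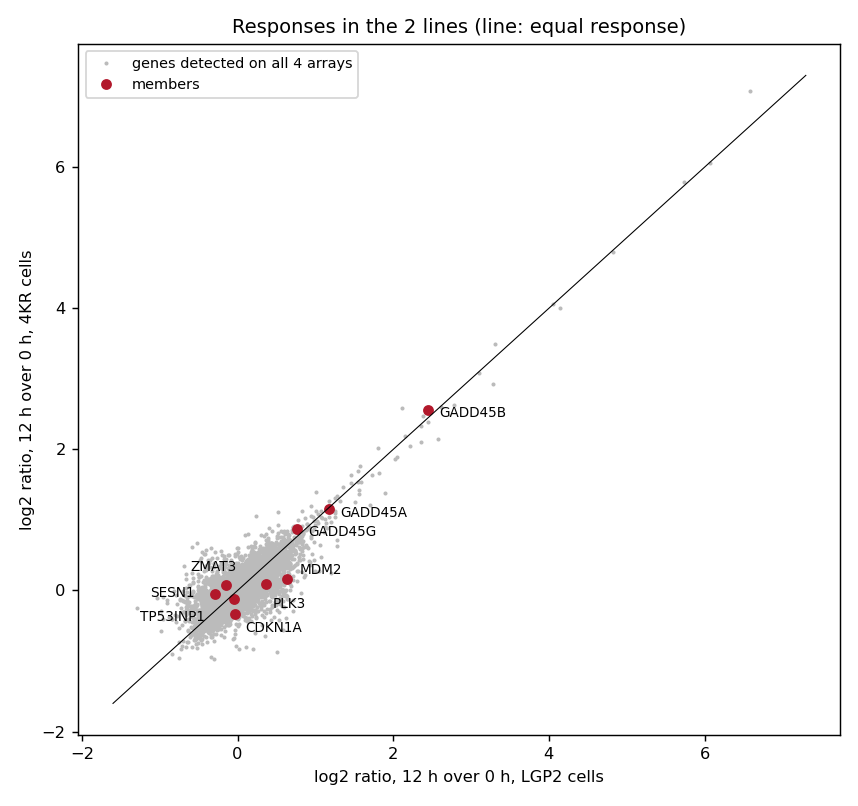
Log2 ratio of 12 h over 0 h in 4KR cells (vertical) against LGP2 cells (horizontal) for 15738 genes detected on all 4 arrays (grey) and the 9 genes described (red); the line marks equal response. The GADD45 genes lie along the line, and MDM2, at 0.16 and 0.63, lies to its right.

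The third question was whether 4KR cells differed from LGP2 cells at a given time. For GADD45B the log2 ratio of 4KR over LGP2 was 0.42 at 12 h (intensities 860.2 and 713.7) and 0.32 at 0 h (120.5 and 92.5). GADD45G was likewise higher, by 0.26 at 12 h and 0.16 at 0 h. Both were above 0 at both times in all 9 settings. GADD45A was at 0.05 and 0.08.

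At 0 h, MDM2 was higher in 4KR cells by 0.50, CDKN1A by 0.25 and PLK3 by 0.23, while SESN1 and ZMAT3 were lower at -0.21 and -0.30. At 12 h MDM2 was at 0.03, CDKN1A at -0.05, PLK3 at -0.04, SESN1 at 0.04 and ZMAT3 at -0.07, and the sign of each changed in at least 1 setting. The SESN1 and ZMAT3 ratios at 0 h involve probes in block 24, whose median at 0 h was -0.19, and with block medians subtracted they were -0.09 and -0.10. TP53INP1 was at -0.01 and 0.07.

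None of the 9 genes was past 2-fold or 1.5-fold at either time. Of all genes, 0.0117% were 2-fold higher and 0 lower in 4KR cells at 12 h, and 0.0117% higher and 0.0117% lower at 0 h. At 1.5-fold, 0.0585% of all genes were 1.5-fold higher and 0.0351% lower at 12 h, and 0.123% and 0.322% at 0 h. In the additive limma fit, with the times in place of replicates, 0 of 9 genes and 0 of all genes passed for the line, and the smallest adjusted p over all genes was 0.873. At an unadjusted p under 0.05 there were 2 of the 9, GADD45B and GADD45G, against 4.87% of all genes. The mean line difference of GADD45B was 0.37, higher at both times, and passed with median scaling (adjusted p = 0.0477) and without normalization. The share of all genes that passed for the line in those settings is not given here.

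**Figure D4:**
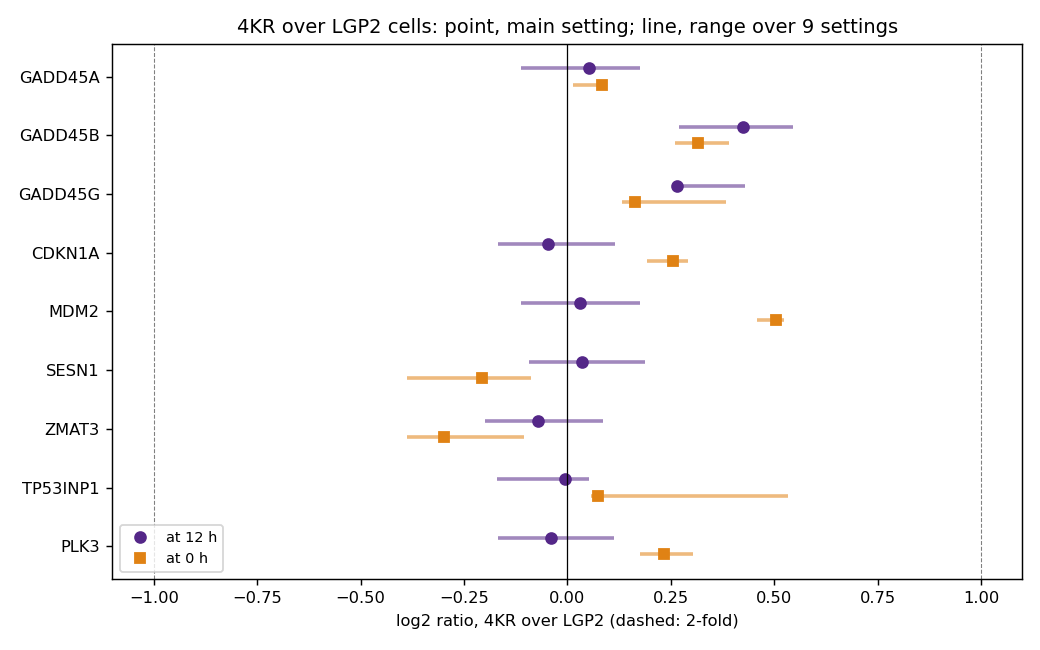
Log2 ratio of 4KR over LGP2 cells for each of the 9 genes at 12 h (circles) and 0 h (squares), with lines for the range over 9 settings and dashed lines at 2-fold. GADD45B (0.42 and 0.32) and GADD45G (0.26 and 0.16) keep their whole ranges above 0 at both times, and MDM2 stands at 0.50 at 0 h but 0.03 at 12 h.

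Other genes of the pathway were grouped by role. Of the regulators of p53, 19 were detected, and 4 rose and 0 fell in the limma fit, with a median log2 response of 0.03 in 4KR cells and 0.02 in LGP2 cells. PPM1D, a phosphatase that switches p53 signalling off, rose by 0.51 (adjusted p = 0.0255), and TP53RK, a p53-binding kinase, by 0.29 (adjusted p = 0.0448). The others that rose were CHEK1, a checkpoint kinase, at 0.26 and RCHY1, a ubiquitin ligase for p53, also at 0.26. Higher and lower regulators numbered 0 and 0 with plain subtraction, 1 and 0 by the deposited values, 8 and 2 with median scaling, and 12 and 0 without normalization. Over all genes the fit called 8.05% higher and 7.42% lower as given. It called 74 and 0 genes with plain subtraction, 1165 and 78 by the deposited values, 4038 and 3312 with median scaling, and 6927 and 21 without normalization. MDM4, the relative and partner of MDM2, had an intensity of 54.7 at 12 h against 40.6 at 0 h in 4KR cells and of 95.5 against 38.2 in LGP2 cells. Its log2 ratios of 0.15 and 0.71 did not pass on average (adjusted p = 0.178), and at 12 h it was lower in 4KR than in LGP2 cells, at -0.51.

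Of 45 further p53 targets detected, 7 rose, 8 fell and 30 did not pass, where 8.05% of all genes rose and 7.42% fell. The same all-gene shares apply beside the list counts that follow. The median log2 response of the 45 targets was -0.01 in 4KR cells and 0.01 in LGP2 cells. Among arrest and repair genes, 3 of 15 rose, namely PLK2, a polo-like kinase, by 0.71, BTG1, an antiproliferative relative of BTG2, by 0.46 and DDB2, a subunit of the ultraviolet damage sensor, by 0.39, and 3 fell, CCNG1, XPC and RPS27L, by 0.34, 0.31 and 0.31. Among death and survival genes 2 of 16 rose and 4 fell. PMAIP1, the gene of the death protein NOXA, was at 3122 at 12 h against 1128 at 0 h in 4KR cells and 3844 against 1435 in LGP2 cells, with log2 ratios of 1.69 and 1.55, and AEN, an apoptosis-enhancing nuclease, rose by 0.74. PERP, an adhesion protein, fell by 0.49, TP53I3, an oxidoreductase, by 0.30, and BAX and PIDD1, both pro-death genes, by 0.24 each.

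Among metabolism and autophagy genes 2 of 14 rose, SESN2, a relative of SESN1, with log2 ratios of 1.05 and 0.94, and TRIM22, also known as an interferon-induced gene, with a mean of 0.83, and CMBL fell by 0.39. TRIM22 was not detected on either 0 h array and was at 22.6 in 4KR and 27.3 in LGP2 cells at 12 h. Its 0 h level is background, and it is counted among the 14 and the 45 only because of the 12 h arrays. SCO2, a cytochrome oxidase assembly factor, had log2 ratios of 0.51 in 4KR cells and -0.01 in LGP2 cells and did not pass. The counts over the 45 targets depended on scaling, with 19 higher and 8 lower under median scaling, 22 and 0 without normalization, and 0 and 0 with plain subtraction. The counts over all genes moved with scaling too, and in the same order were 4038 and 3312, 6927 and 21, and 74 and 0. Of the 8 that fell, CCNG1 and PERP were below 0 in all 9 settings, and the other 6 were above 0 in 1 setting each.

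Among 16 detected relatives of the members in the same families, 5 rose and 0 fell: SESN2, PLK2, BTG1, TOB1, an antiproliferative relative of BTG1, by 0.51, and BTG3 by 0.36. SESN3 was dim, at log2 ratios of -0.09 and -0.02. With plain subtraction 0 of the 16 passed.

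Of 13 detected genes of the proteins known to act with GADD45, 2 rose and 1 fell. MAP3K4, the kinase that GADD45 proteins activate, rose by 0.18 (adjusted p = 0.049), and PCNA, the replication clamp, by 0.29. MAP2K6, a kinase upstream of p38, fell by 0.40. Of these 13, 0 passed with plain subtraction and 0 in the deposited values.

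Lists of other stress pathways stood higher. All lists were chosen with earlier results of these data known, so this contrast is a description and not a test. Of 15 detected NF-kB targets 8 rose and 0 fell, with a median of 0.44 in 4KR cells and 0.74 in LGP2 cells. Their leading genes were CXCL8, a neutrophil chemokine, at 3.49 and 3.30, TNFAIP3, a feedback inhibitor, at 3.08 and 3.10, and CXCL2, another chemokine, at 2.59 and 2.61. Those that did not pass were NFKB1, at a mean of 0.71, NFKBIE, at 0.11, and NFKB2, TRAF1, SOD2, ZC3H12A and TNIP1, between -0.02 and 0.02. Of 16 targets of ATF4 and stress kinases 14 rose and 0 fell, with medians of 0.61 and 0.77. Their leading genes were the transcription factors EGR1 at 2.47 and 2.39, ATF3 at 2.15 and 2.58 and JUN at 1.38 and 1.89. IER2, at a mean of 0.01, and MYC, at 0.14, did not pass. SESN2 belongs to this ATF4 list as well as to the p53 targets. With plain subtraction 4 of the 15 and 2 of the 16 passed.

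**Figure D5:**
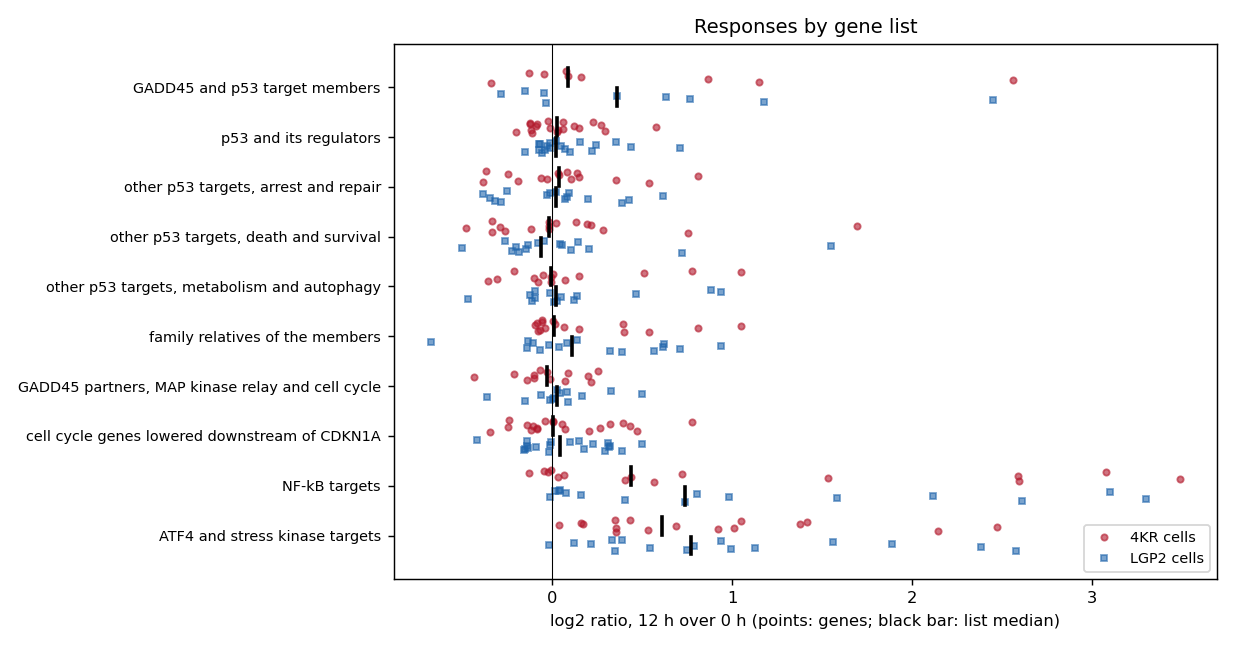
Log2 ratio of 12 h over 0 h in 4KR cells (circles) and LGP2 cells (squares) for every detected gene of 10 lists, with black bars at the list medians. The medians of the 3 lists of other p53 targets and of the regulators lie within 0.1 of 0, while those of the NF-kB and ATF4 lists lie between 0.44 and 0.77. The lists were chosen with earlier results of these data known.

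The genes whose pattern over the 4 arrays was most like GADD45B, by Euclidean distance between mean-centred log2 levels among 15738 genes, were EGR1 at 0.245, the interferon-induced membrane protein gene IFITM1 at 0.270, CXCL2 at 0.362, the RNA sensor gene IFIH1 at 0.412 and the exonuclease gene ISG20 at 0.428. IFITM1, for example, had intensities of 720.9 at 12 h against 116.3 at 0 h in 4KR cells and of 718.0 against 101.0 in LGP2 cells. EGR1 had 170.8 against 7.3 in 4KR cells and 160.5 against 4.9 in LGP2 cells. CXCL2 had 158.1 against 2.4 and 168.2 against 1.5, and IFIH1 226.3 against 19.4 and 256.5 against 18.9. ISG20 had 308.3 against 46.8 and 344.1 against 36.6. Over the 9 settings the mean log2 ratio reached 4.79 for EGR1 and 6.41 for CXCL2, but 2.92 for GADD45B. The same Euclidean distance for CDKN1A, the member with the lowest mean response, gave P4HB, PRKCH, DAZAP2P1, DNAJC19 and IMPA2, at distances between 0.0281 and 0.0529. These are likenesses over 4 arrays only. They hold on log2 levels with the offset of 50, which shrinks the ratios of genes dim at 0 h, such as EGR1 and CXCL2.

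The labels were checked against markers. Of 8 HEK293 markers on the array, 8 were detected on each array, with a summed intensity between 696.1 and 736.2 at 12 h and between 767.0 and 785.8 at 0 h. The dimmest of them was between 2.39 and 3.8 on each array, and the brightest between 258.5 and 320.8. Of 8 immune cell markers 5 or 6 were detected, with sums of 199.3 and 207.2 at 12 h against 177.7 and 173.6 at 0 h. PTPRC and MS4A1, defining genes of leukocytes and B cells, were not above background on any array. CD79A, another B cell gene, was at 143.5 and 147.1 at 12 h against 121.9 and 119.8 at 0 h, and CD3E, CD3D, CD14 and LYZ were detected on all 4 arrays at intensities between 6.8 and 23.1. Of 7 hepatocyte and keratinocyte markers 5 or 6 were detected, with sums of 318.4 and 310.3 at 12 h against 242.9 and 245.6 at 0 h. KRT14 was the brightest of them, and ALB was not above background on any array. Of 7 fibroblast markers, 4 were detected on each 12 h array and 2 on each 0 h array. Their sums were 125 in 4KR and 43.4 in LGP2 cells at 12 h, and 107.9 and 108.9 at 0 h. These sums leave out probes without a deposited value, so a value present on only some arrays can move them. In the normalized values the 5 fibroblast genes detected on any array had log2 ratios between -0.13 and 0.03 in LGP2 cells. The part of other cell types in the results was not tested. DHX58, the gene of LGP2, had intensities of 42.6 in 4KR cells and 51.0 in LGP2 cells at 12 h, and of 22.8 and 41.4 at 0 h. It is not known here whether its probe reads the transgene, so these values do not check the labels. All 13 antiviral genes detected on at least 1 array, of which 12 were detected on all 4, passed as higher at 12 h. IFIT1 is an example, and the median log2 ratio was 4.01 in 4KR cells and 4.06 in LGP2 cells.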

How the data were processed

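RNA was measured on 4 single-colour arrays, 1 for each line and time. The deposited scanner tables give the spot median intensity on a linear scale, not normalized, per the file headers. The authors' deposited series table holds intensities that equal the spot median minus about the mean blank spot, rescaled to a median of 25 per array. Here the spot medians were corrected with limma 3.58.1 in R 4.3.3 (normexp, offset 50, the mean blank spot as background), quantile normalized over 24460 gene probes and taken to log2. Probes of a gene were averaged, and 1 probe rejected by the scanner was left out. A probe was detected above the mean plus 2 SD of 384 blank spots, which 83.2% to 89.2% of gene probes were. Genes counted at 2-fold had to be detected on the brighter array, or on all 4 for the difference of responses. P-values come from the additive limma fit with Benjamini-Hochberg adjustment over 17085 genes, called at 0.05. The platform annotation named 1 gene for 21707 probes. The files name no genome build. Promoters are from RefSeq, GRCh38.p14.

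Genes named by rule are the members, MDM4, DHX58, the 3 genes of each list with the largest absolute mean response among those detected on all 4 arrays, and the 5 genes most like GADD45B and most like CDKN1A. Other list genes named because they passed (such as CHEK1, RCHY1, BAX and TRIM22) or did not pass (such as NFKB1 and MYC), and SESN3, were chosen after their values were seen. The members and lists were chosen with earlier results of these data known. The 9 alternatives were offset 16, plain subtraction, no normalization, median scaling, the deposited table, block medians subtracted, the brightest probe, detection at 3 SD and a 1.5-fold limit. The deposited table differs in both background correction and scaling. The number of arrays limits the precision, and nothing in the labels says that arrays came from separate cultures.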

Additional observations from a re-analysis of the deposited data

How the results depend on the processing

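The counts of genes past 2-fold among the 9 stayed within 1.5 times of those given in all 8 other settings of each comparison. At 1.5-fold the count in LGP2 cells was 4, with GADD45G and MDM2 added, and in 4KR cells 3. For stimulation, the additive limma fit called 7 of the 9 when arrays were not normalized to each other, 7 when they were scaled by the median (6 higher, 1 lower) and 1 with plain subtraction, against 3 as given. CDKN1A (0.28) and ZMAT3 (0.42) were then called higher without normalization, and ZMAT3 (0.20) with median scaling, though their means were below 0 as given. TP53INP1 was called lower with median scaling (-0.22). For the line, GADD45B alone was called, 1 of 9, both without normalization and with median scaling. The share of all genes called for the line in those settings is not given here, so this count cannot be read against it. The cause was not tested. Over all genes, the fit called 1375 higher and 1268 lower as given, 6927 and 21 without normalization, 4038 and 3312 with median scaling, and 74 and 0 with plain subtraction. Genes 2-fold higher numbered 68 in 4KR and 74 in LGP2 cells as given, and up to 531 and 989 in the deposited table. Of the values of single members under these alternatives, 477 kept their direction and side of the threshold, or (where untested) stayed within 1.5-fold, 15 moved, 7 gained and 2 lost a call, and 3 were called with the opposite sign. The 477 include repeats, since the brightest probe and detection at 3 SD could not change the ratios of genes with 1 probe. Values near 0 changed sign in more cases without a call. No paired analysis was possible because each group is 1 array and the labels carry no replicate numbers, apart from the additive fit itself, which sets 12 h against 0 h within each line. Dim genes such as TP53INP1 are limited by their signal over background.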

Other observations

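Of 20 detected cell cycle genes that p21, the product of CDKN1A, is known to lower, 6 rose and 0 fell in the additive limma fit. The shares of all genes were 8.05% and 7.42%. The list had a median log2 ratio of 0.01 in 4KR cells and 0.05 in LGP2 cells. Those that rose were AURKB, a mitotic kinase, by 0.43, MCM2 and MCM3, subunits of the replicative helicase, by 0.41 and 0.35, the phosphatase gene CDC25A by 0.38, CCNE2, a cyclin, by 0.29 and BIRC5, the gene of survivin, by 0.25. MCM5, another helicase subunit, was at 0.78 in 4KR cells and 0.10 in LGP2 cells and did not pass. With plain subtraction 0 of the 20 passed, and the list's median relative to all genes was 0.04 as given and -0.15 in the deposited table. CDC25A, CCNE2, BIRC5 and MCM3, and the 3 control genes that fell, were named after their values were seen. Of 9 common control genes 3 fell, namely HPRT1 by 0.32, TUBB by 0.24 and PPIA by 0.21, with a median of -0.21 in 4KR cells and -0.24 in LGP2 cells, below the median of all genes in all 9 settings. The count that fell was 7 with block medians subtracted, 6 with offset 16, 1 with the brightest probe, 2 with median scaling and 0 with plain subtraction, without normalization and in the deposited table. For block medians, offset 16 and the brightest probe the share of all genes that fell is not given here, so those counts cannot be read against it. ACTB (-0.40), YWHAZ (-0.34) and PGK1 (-0.33) did not pass.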
